A study of Arabidopsis thaliana with 9 samples.

Results

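ACC oxidases and ethylene receptors stand at the end of ethylene synthesis and at the start of ethylene perception. Of these Arabidopsis genes 10 were chosen, by locus and not by their values, and all 10 were found among the 29420 gene identifiers of the count table. All 10 also passed the filter on low counts, which left 20171 tested genes. The 9 described here are the ACC oxidase genes ACO1, ACO3, ACO4 and ACO5 and the receptor genes ETR1, ERS1, ETR2, EIN4 and ERS2.

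PolyA RNA was sequenced from whole seedlings in 9 libraries, 3 biological replicates each of the mutants hda9-1 and pwr-2 and of the wild type, WT. All 3 genotypes were in the Col ecotype, and the seedlings were 10 days old, grown on MS agar at 23°C with 16 h of light and 8 h of dark after 2 days in the cold. HDA9 encodes a histone deacetylase and PWR (POWERDRESS) a protein with SANT domains, and the series title states that they interact and promote deacetylation of histone H3. No ethylene treatment, ACC treatment or ethylene measurement is named in the labels, and every group is a whole seedling, so a smaller share of cells of a type and less RNA per cell cannot be told apart.

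In plants, ethylene is made from S-adenosylmethionine, which ACC synthases turn into ACC and ACC oxidases turn into ethylene. The receptors sit mainly in the endoplasmic reticulum membrane and repress the response while no ethylene is bound, acting through the kinase CTR1 on EIN2, and EIN2 in turn acts on the transcription factors EIN3 and EIL1. ETR1 and ERS1 form subfamily 1, with an intact histidine kinase domain, and ETR2, EIN4 and ERS2 form subfamily 2, in which that domain is degenerate. ETR1, ETR2 and EIN4 carry a receiver domain that ERS1 and ERS2 lack.

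Library totals ran between 6450661 and 11150773 counts, and a floor of 3 counts is worth 0.259 to 0.491 CPM. CPM are counts per 1000000 of a library's total times its TMM normalisation factor. The targeted genes were lower in their own mutants. HDA9 averaged 7.03 CPM in hda9-1 and 38.0 CPM in WT (adjusted p = 3.23e-08), and PWR averaged 48.7 CPM in pwr-2 and 141 CPM in WT (adjusted p = 1.23e-06), by edgeR. Each was also called in the other mutant by edgeR. PWR was higher in hda9-1, at 191 CPM (adjusted p = 0.00146), and HDA9 was lower in pwr-2, at 32.6 CPM (adjusted p = 0.0326). Replicate 3 of hda9-1 was the smallest library, and it held the lowest hda9-1 value of 5 of the 9 genes and the highest of 2. Green tissue markers summed to 1925 to 2230 CPM in hda9-1, 1980 to 2037 CPM in pwr-2 and 1811 to 1837 CPM in WT, with 1 of 5 called higher in hda9-1 and 2 of 5 in pwr-2, against 17.6% and 16% of all tested genes. At an unadjusted p under 0.05, 3 of the 5 were higher in each mutant, a count with no share of all tested genes beside it. In hda9-1 4 lay wholly above WT and in pwr-2 5, against 23.5% and 25.7% of all tested genes. All 5 averaged at least 210.6 CPM in each genotype. In the highest of 5 level classes of the tested genes, which holds them, 33.6% were called higher in hda9-1 and 31.9% in pwr-2. Root markers summed to 202 to 231 CPM in hda9-1, 197 to 210 CPM in pwr-2 and 195 to 202 CPM in WT. PYK10 made up nearly all of these sums, with means of 208 CPM in hda9-1, 200 in pwr-2 and 192 in WT. Of the others, with means of at most 2.25 CPM, CASP1 had a higher mean in each mutant than in WT. TIP2;3, COBL9, EXP7 and WER had a lower mean in each mutant. None of the 4 root markers tested was called by edgeR, against 34.2% of all tested genes in hda9-1 and 31.4% in pwr-2. At an unadjusted p under 0.05 there were 0 in hda9-1 and 1, lower than in WT, in pwr-2, again with no such share beside it. Flower markers summed to 29.2 to 38.0 CPM in hda9-1, 34.8 to 42.7 CPM in pwr-2 and 20.5 to 25.6 CPM in WT, where SEP3 was the member called higher in each mutant. Seed markers summed to at most 0.773 CPM in any library, and SESA1 and CRU3, seed storage protein genes, had 0 counts in all pwr-2 and WT libraries. The part of these markers in the results below was not tested.

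Upstream sequences of 4 members are shown, each of 200 bases ending at the base before the annotated start and read 5′ to 3′ on the strand of the gene from the RefSeq genome of assembly TAIR10.1. ACO1 and ACO5 were chosen because they fell in both mutants, ETR2 because it fell most among the receptors, and ERS1 as a receptor with nearly the same level in the 3 genotypes. Capitals mark matches to ATGNANCT, a loose form of the sequence bound by EIN3-type factors, on either strand.
ACO1, chr2:8477734-8477933, minus strand: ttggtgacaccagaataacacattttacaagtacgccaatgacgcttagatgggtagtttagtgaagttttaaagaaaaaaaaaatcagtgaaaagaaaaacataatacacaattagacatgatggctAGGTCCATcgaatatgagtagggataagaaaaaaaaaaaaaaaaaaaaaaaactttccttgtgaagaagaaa
ACO5, chr1:29064638-29064837, minus strand: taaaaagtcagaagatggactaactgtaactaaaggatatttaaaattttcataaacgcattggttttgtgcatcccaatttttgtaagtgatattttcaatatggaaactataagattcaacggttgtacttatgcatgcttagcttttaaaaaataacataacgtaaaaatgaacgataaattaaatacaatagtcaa
ETR2, chr3:8254359-8254558, plus strand: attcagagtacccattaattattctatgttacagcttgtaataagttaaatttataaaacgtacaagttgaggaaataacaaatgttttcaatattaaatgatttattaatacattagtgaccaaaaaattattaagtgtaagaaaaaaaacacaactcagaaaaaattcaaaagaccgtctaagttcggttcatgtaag
ERS1, chr2:17087327-17087526, minus strand: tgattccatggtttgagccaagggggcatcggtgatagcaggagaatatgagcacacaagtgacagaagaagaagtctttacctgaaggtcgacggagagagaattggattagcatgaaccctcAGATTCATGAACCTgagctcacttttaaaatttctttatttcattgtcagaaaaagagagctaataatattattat

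ACO1 held 1 such match, which began 72 bases before the start, and ERS1 held 2 overlapping ones, which began 76 and 70 bases before it. The other 7 genes held none, and ATGNANCT was found in 9.75% of the same windows of 26709 protein-coding genes. The GCC box GCCGCC, the DRE core GCCGAC and the G-box CACGTG, searched on both strands, matched in none of the 9 windows, against 1.44%, 2.11% and 5.74% of all windows. In the ACO1 window 153 of the bases lie in an exon of AT2G00650, an RNA gene on the other strand. A match is a description of letters and was not tested as a binding site.

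Among the ACC oxidases, which are soluble enzymes that oxidise ACC with ascorbate as a cosubstrate, ACO1 and ACO5, of low level, fell in both mutants, and ACO3 and ACO4 were not called. ACO5 and ACO1 had about 0.324 and 0.603 times the WT level in hda9-1, and 0.282 and 0.632 times in pwr-2. ACO4, of much higher level, was estimated at 1.07 times the WT level in hda9-1 and at 0.952 times in pwr-2, with no call.

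ACO5 (AT1G77330, chromosome 1, 29062945 to 29064637, 4 exons) had 1.79, 1.44 and 0.164 CPM in hda9-1, 0.984, 1.40 and 0.796 CPM in pwr-2, and 3.69, 5.10 and 2.48 CPM in WT. Every library of each mutant lay below every WT library, and the lowest value, in hda9-1 replicate 3, rested on 1 count and was under the floor. The log2 fold change was -1.63 in hda9-1 (SE 0.45, adjusted p = 0.0158) and -1.83 in pwr-2 (SE 0.45, adjusted p = 0.0108), in edgeR's quasi-likelihood test with Benjamini-Hochberg adjustment over all tested genes. With 31 counts in hda9-1, 28 in pwr-2 and 119 in WT over the 3 libraries, the intervals for counting error only were -2.25 to -1.05 in hda9-1 and -2.51 to -1.26 in pwr-2. Without WT replicate 2, the highest library, the adjusted p was 0.0747 in hda9-1 and 0.0533 in pwr-2, and the log2 fold changes were -1.34 and -1.54. Of its exon bases 2.46% overlap a gene on the other strand, and the strand setting of the counting is not given.

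ACO1 (AT2G19590, chromosome 2, 8475276 to 8477733) had 6.84, 4.31 and 4.10 CPM in hda9-1, 4.80, 5.48 and 5.91 CPM in pwr-2, and 9.75, 8.64 and 7.20 CPM in WT. The WT libraries were all above those of the mutants, with hda9-1 replicate 1 close to the lowest WT library. In hda9-1 ACO1 fell by 0.73 on the log2 scale (SE 0.21, adjusted p = 0.0184), and in pwr-2 by 0.66 (SE 0.20, adjusted p = 0.0284). In hda9-1 the adjusted p was 0.0758 without hda9-1 replicate 2, 0.0532 without hda9-1 replicate 3, 0.0769 without WT replicate 1, 0.0534 without WT replicate 2 and 0.0588 with loess offsets, which remove a trend of the fold change with expression level. In pwr-2 it was 0.0509 to 0.0923 without a pwr-2 replicate, 0.118 and 0.0787 without WT replicate 1 or 2, 0.0565 with DESeq2 and 0.0908 with loess offsets. The value was negative in all of these.

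ACO3 and ACO4 overlapped between genotypes. ACO4 (AT1G05010, also named EFE) had 136, 144 and 178 CPM in hda9-1, 141, 133 and 132 CPM in pwr-2, and 140, 136 and 152 CPM in WT. Its log2 fold change was 0.09 (95% interval -0.12 to 0.31, adjusted p = 0.441) in hda9-1 and -0.07 (-0.29 to 0.15, adjusted p = 0.562) in pwr-2. The highest value was that of hda9-1 replicate 3, and without it the log2 fold change in hda9-1 was -0.02. In pwr-2 the loess offsets gave a call for ACO4 (log2 fold change -0.21, adjusted p = 0.0153). ACO3 (AT1G12010), at 12.9 to 14.7 CPM in hda9-1, 12.8 to 15.0 CPM in pwr-2 and 12.5 to 14.2 CPM in WT, had log2 fold changes of 0.04 (interval -0.22 to 0.30) and 0.07 (-0.18 to 0.33). Of the stretches of 31 bases in the exons of ACO3, 0.8% recur elsewhere in the genome, and of those of ACO4 none.

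**Figure D1:**
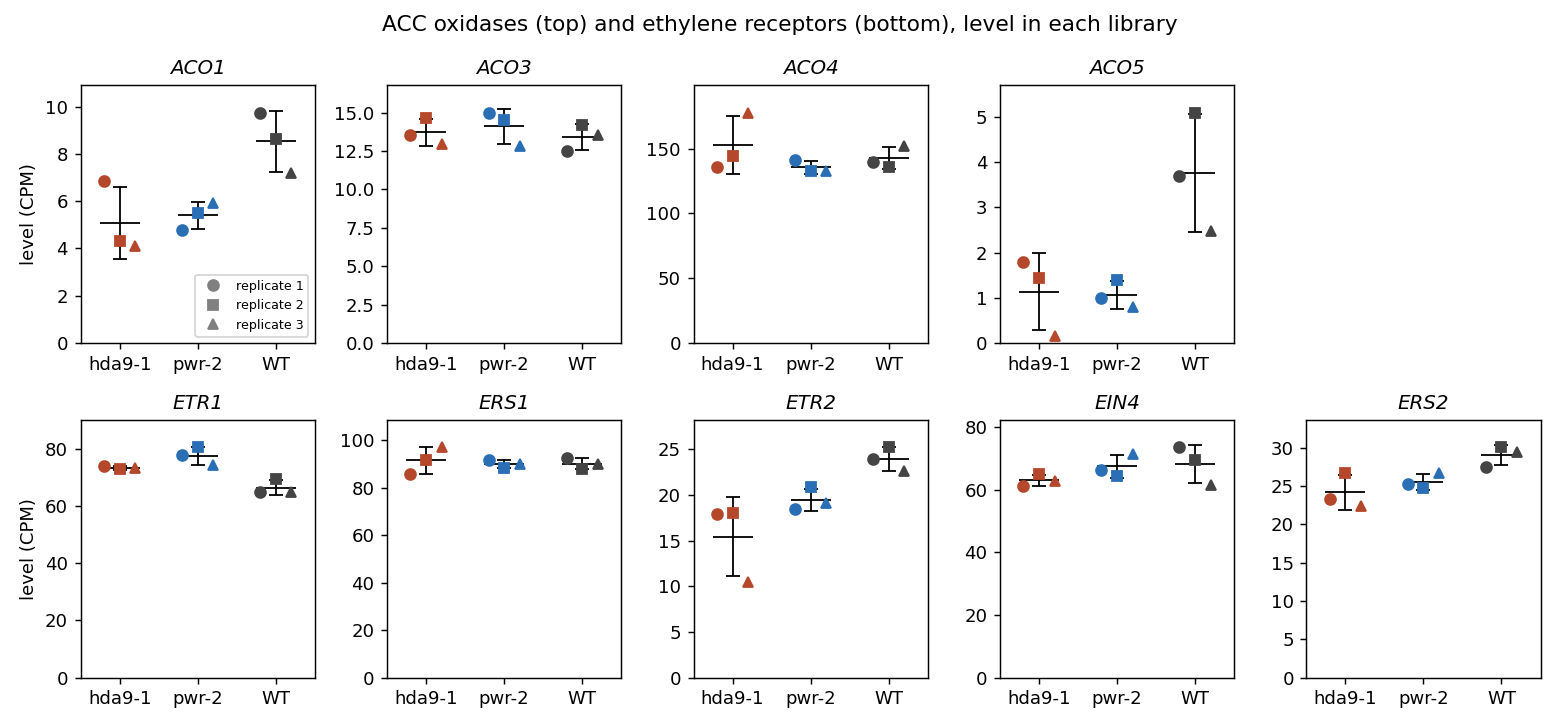
Level of each gene in CPM (vertical axes from 0, 1 panel per gene) in the 3 libraries of hda9-1, pwr-2 and WT, with the mean and SD as line and bar and the replicate number as the marker shape. ACO1, ACO5, ETR2 and ERS2 lie lower in each mutant library than in any WT library, and ETR1 lies higher.

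In the receptors of subfamily 1, ETR1 rose slightly in pwr-2 and ERS1 was nearly level. ETR1 (AT1G66340, chromosome 1, 24734162 to 24737756), the receptor identified first from ethylene-insensitive mutants, had 74.0, 72.7 and 73.2 CPM in hda9-1, 77.7, 80.4 and 74.1 CPM in pwr-2, and 64.9, 69.4 and 64.9 CPM in WT. All 6 mutant libraries were above all WT libraries. ETR1 rose in pwr-2, to 1.17 times the WT level (log2 fold change 0.22, SE 0.05, adjusted p = 0.00723), a call that was lost with loess offsets (0.15, adjusted p = 0.0515). In hda9-1 the log2 fold change was 0.14 (SE 0.05, adjusted p = 0.0507). It passed the threshold with the replicate number as a block in the fit of the hda9-1 and WT libraries alone (adjusted p = 0.0227). With RLE size factors in edgeR it passed too (0.0467), but DESeq2 itself gave no call (0.15). With upper-quartile factors and loess offsets the log2 fold change was 0.06 and 0.07 (adjusted p = 0.376 and 0.369). ERS1 (AT2G40940), which encodes a receptor without a receiver domain, had 85.8, 91.7 and 97.0 CPM in hda9-1, 91.8, 88.3 and 90.1 CPM in pwr-2, and 92.6, 87.8 and 89.9 CPM in WT. These ranges overlapped, with log2 fold changes of 0.02 (interval -0.11 to 0.15, adjusted p = 0.830) in hda9-1 and -0.002 (-0.13 to 0.13, adjusted p = 0.980) in pwr-2.

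In subfamily 2, ETR2 and ERS2 fell in hda9-1 and EIN4 was not called. ETR2 (AT3G23150, chromosome 3, 8254559 to 8257888), described elsewhere as induced by ethylene, as are ERS1 and ERS2, had 17.9, 18.0 and 10.5 CPM in hda9-1, 18.4, 20.8 and 19.1 CPM in pwr-2, and 23.9, 25.2 and 22.6 CPM in WT. Neither mutant overlapped WT, and hda9-1 replicate 3 was well below the other hda9-1 libraries. ETR2 fell in hda9-1 to 0.660 times the WT level (log2 fold change -0.60, SE 0.15, adjusted p = 0.00917), and without hda9-1 replicate 3 it still fell, by 0.42 on the log2 scale (adjusted p = 0.00575). This call held in all 17 alternatives, with adjusted p of 0.000272 to 0.0414. In pwr-2 the log2 fold change was -0.30 (SE 0.14, adjusted p = 0.131), and it passed the threshold in the fits without hda9-1 replicate 3 (adjusted p = 0.0135) and without any hda9-1 library (0.0168).

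ERS2 (AT1G04310, chromosome 1, 1154740 to 1157813) had 23.4, 26.7 and 22.4 CPM in hda9-1, 25.3, 24.7 and 26.7 CPM in pwr-2, and 27.5, 30.1 and 29.5 CPM in WT. The groups did not overlap, though the gap to the lowest WT library was small. In hda9-1 ERS2 fell by 0.26 on the log2 scale (SE 0.08, adjusted p = 0.0266), and this call was lost with DESeq2 (0.119), with loess offsets (0.110), and without hda9-1 replicate 1 (0.0721), hda9-1 replicate 3 (0.0745), WT replicate 2 (0.0985) or WT replicate 3 (0.0613). In pwr-2 it had -0.18 (SE 0.08, adjusted p = 0.0956, and 0.0359 with upper-quartile scaling). EIN4 (AT3G04580), a subfamily 2 receptor with a receiver domain, had 61.3, 64.9 and 62.9 CPM in hda9-1, 66.4, 64.4 and 71.4 CPM in pwr-2, and 73.5, 69.4 and 61.5 CPM in WT. The WT libraries overlapped those of both mutants, and the log2 fold change was -0.12 (interval -0.28 to 0.05, adjusted p = 0.206) in hda9-1 and -0.02 (-0.18 to 0.14, adjusted p = 0.839) in pwr-2. Without WT replicate 3, EIN4 was called lower in hda9-1 (-0.19, adjusted p = 0.0388), and likewise with upper-quartile scaling (-0.20, adjusted p = 0.0446).

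**Figure D2:**
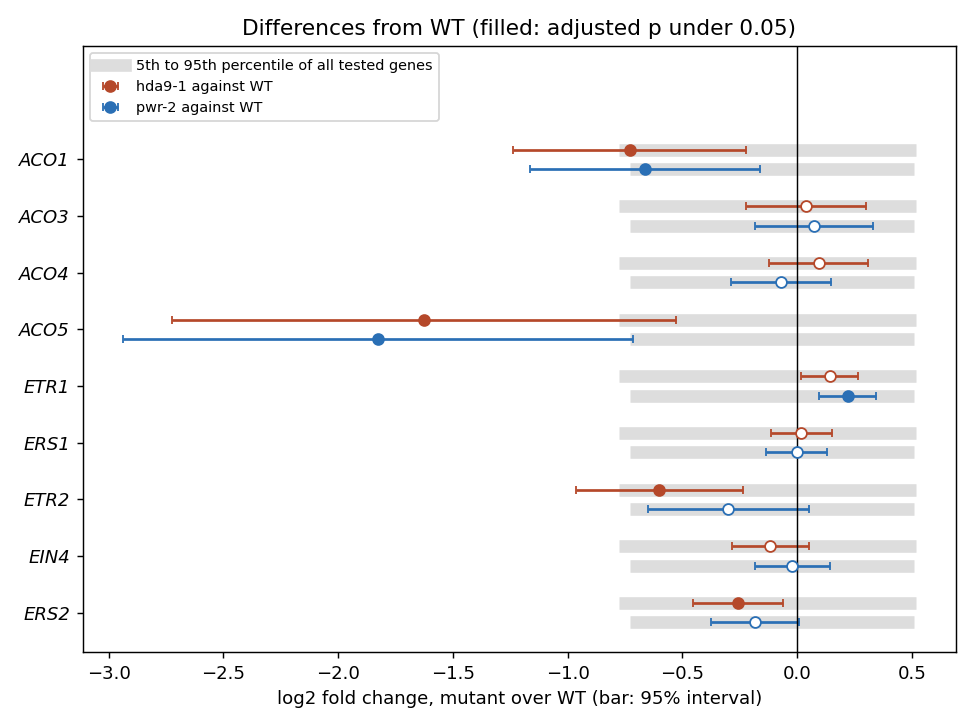
Log2 fold change of each gene in hda9-1 and pwr-2 over WT (horizontal axis) with 95% intervals from the fit, filled where the adjusted p was under 0.05, over grey bars for the 5th to 95th percentile of all tested genes. ACO5 lies beyond the grey bar in both mutants, at -1.63 and -1.83, and the other 8 genes lie inside it.

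Counted together, 4 of the 9 genes were lower and none higher in hda9-1, and 2 were lower and 1 higher in pwr-2. Over all tested genes 34.2% were called in hda9-1, 17.6% higher and 16.6% lower, and 31.4% in pwr-2, 16% higher and 15.3% lower. With 4 of 9 and 3 of 9 called, they were called about as often as genes in general. At an unadjusted p under 0.05, 1 gene was higher and 4 were lower in hda9-1, and 1 was higher and 3 were lower in pwr-2. The shares above are for the adjusted p, so they are not the background of these unadjusted counts. The median log2 fold change of the 9 was -0.12 in hda9-1, against 0.002 for all tested genes, and -0.07 in pwr-2, against -0.006. In each mutant 4 of them lay wholly below WT and 1 wholly above. Of all tested genes 22.9% lay below, 23.5% above and 46.4% either way in hda9-1, and 24.7%, 25.7% and 50.4% in pwr-2. Both comparisons share the WT libraries, so they are not independent.

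The direct comparison of pwr-2 with hda9-1 called none of the 9 genes, against 0.421% of all tested genes, 0.312% higher and 0.109% lower in pwr-2. None had an unadjusted p under 0.05 in edgeR, and DESeq2 called none. The largest estimates were 0.30 for ETR2 (19.5 ± 1.2 CPM in pwr-2 and 15.5 ± 4.3 CPM in hda9-1, SD, n = 3 each, interval -0.08 to 0.68) and -0.20 for ACO5 (interval -1.55 to 1.14). ETR1 and ETR2 lay higher in every pwr-2 library than in any hda9-1 library, as did 9.16% of all tested genes, while 8.71% lay lower, 17.9% in all. For ERS1 the interval was -0.15 to 0.11, much narrower than that of ACO5. ETR2, called against WT in hda9-1 and not in pwr-2, was not shown to differ between the mutants.

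Per length, the ACC oxidases spanned a wide range of levels and the receptors a narrow one. In WT, ACO4 had 93.2 ± 5.6 CPM per kb of exon, ACO3 9.79 ± 0.62, ACO1 3.62 ± 0.54 and ACO5 2.71 ± 0.95 (SD, n = 3). ACO1 and ACO5 overlapped in WT, and the other neighbours in this order were apart in all 3 libraries of each genotype. In hda9-1 ACO4 had 99.9 ± 14.5 CPM per kb, ACO3 10.02 ± 0.64, ACO1 2.15 ± 0.65 and ACO5 0.816 ± 0.617. In pwr-2 ACO4 had 88.7 ± 3.2 CPM per kb, ACO3 10.3 ± 0.8, ACO1 2.29 ± 0.24 and ACO5 0.765 ± 0.222. The order of these means was the same in the 3 genotypes.

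Among the receptors ERS1 was highest in each genotype, with 37.7 ± 2.3 CPM per kb in hda9-1, 37.1 ± 0.7 in pwr-2 and 37.1 ± 1.0 in WT. ETR1 came next with 26.4 ± 0.2, 27.9 ± 1.1 and 23.9 ± 0.9 CPM per kb, and EIN4 followed with 18.9 ± 0.5, 20.2 ± 1.1 and 20.4 ± 1.8, in hda9-1, pwr-2 and WT. ERS2 had 9.31 ± 0.87 CPM per kb in hda9-1, 9.86 ± 0.40 in pwr-2 and 11.2 ± 0.5 in WT. ETR2 was lowest, with 4.78 ± 1.33 in hda9-1, 6.02 ± 0.38 in pwr-2 and 7.40 ± 0.40 in WT. Neighbours were apart in every genotype, but per coding length ETR1 and EIN4 overlapped in WT, at means of 29.9 and 29.6 CPM per kb. Of the summed receptor level ETR1 held 26.4% to 28.1% in hda9-1, 26.3% to 28.8% in pwr-2 and 23.0% to 24.7% in WT. ETR2 held 3.34% to 5.83% in hda9-1, 5.64% to 6.40% in pwr-2 and 7.21% to 7.69% in WT. The sum was 94.95 to 99.34 CPM per kb in hda9-1, 100.7 to 101.4 in pwr-2 and 97.21 to 101.6 in WT.

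**Figure D3:**
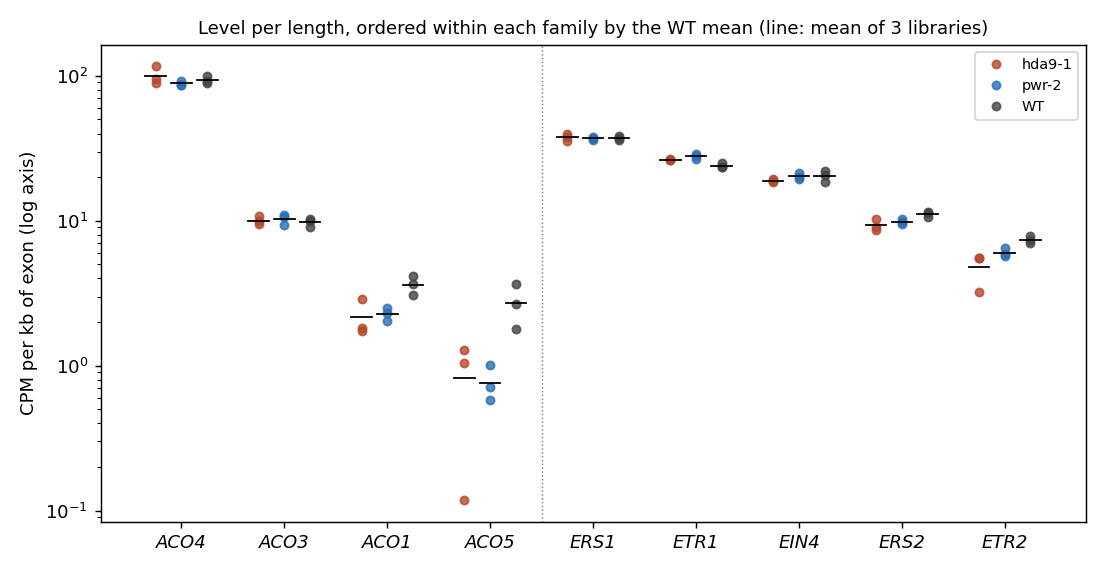
CPM per kb of exon (log axis) of each library of hda9-1, pwr-2 and WT, genes ordered within each family by the WT mean, which is drawn with the other means as a line. ACO4 stands above the other ACC oxidases shown in every library, and the receptors run from ERS1 to ETR2 in all 3 genotypes.

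The members that fell were of low or middle level, and fold changes followed the level across all tested genes. With the tested genes divided into 5 classes of equal size by mean log2 CPM, the lowest class, which holds ACO1 and ACO5, had 21.6% of its genes called lower and 6.12% higher in hda9-1. The second class, with ACO3 and ETR2, had 26.0% lower and 7.98% higher, and the third, with ERS2, 20.3% lower and 14.7% higher. In the fourth class, with ETR1 and EIN4, 11.4% were lower and 25.8% higher, and in the highest, with ACO4 and ERS1, 3.42% were lower and 33.6% higher. In pwr-2 the lowest class had 21.0% lower and the highest 1.56% lower, with 31.9% higher. Class medians of the log2 fold change ran from -0.26 to 0.12 in hda9-1 and from -0.28 to 0.12 in pwr-2. With loess offsets, ACO5 and ETR2 were lower in hda9-1 (adjusted p = 0.0453 and 0.0179), and ACO5 (0.0275) and ACO4 in pwr-2.

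**Figure D4:**
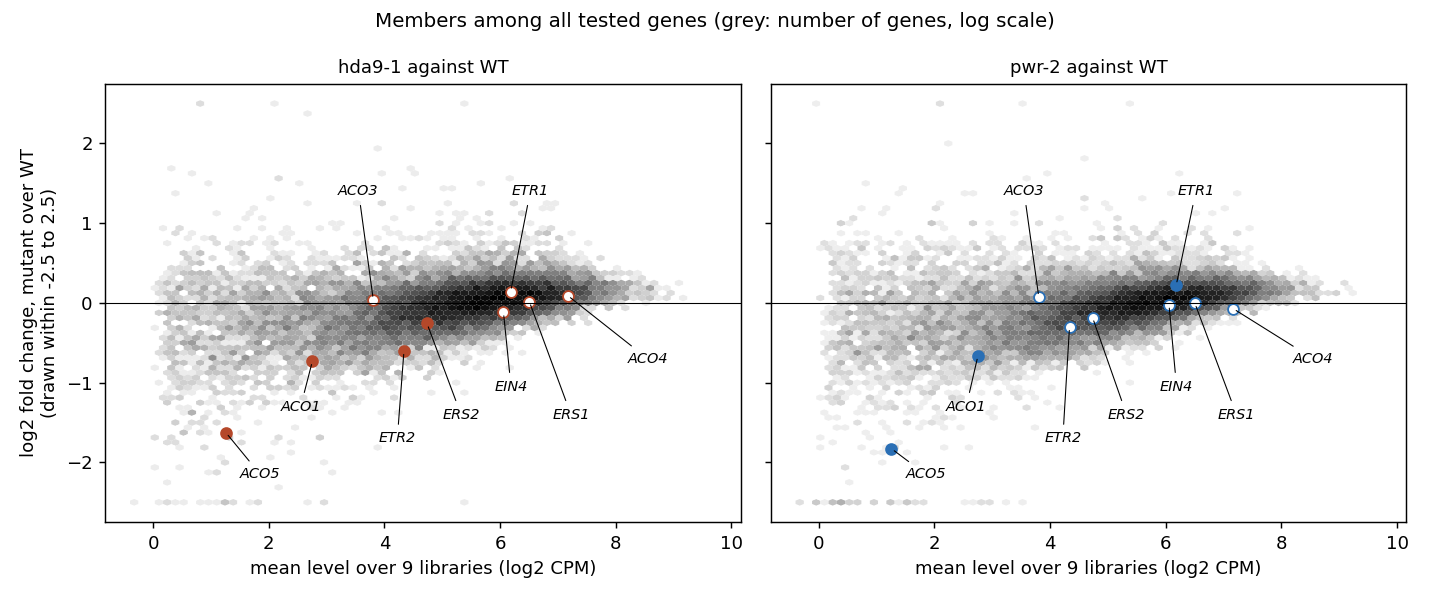
Log2 fold change over WT (vertical axis, drawn within -2.5 to 2.5) against the mean log2 CPM of 9 libraries for all tested genes (grey, darker for more genes) and the 9 genes described (filled where called), for hda9-1 on the left and pwr-2 on the right. The cloud tilts upward with level, and ACO5 sits at its sparse lower edge while ETR1 sits in its dense part.

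To find like profiles, the root mean square difference of log2 CPM relative to WT over the 9 libraries was taken for 8441 named genes of mean log2 CPM of at least 1. Most like ACO1 were CNGC12, a cyclic nucleotide-gated channel gene, at 0.12, and ACBP5, an acyl-CoA-binding protein gene, at 0.12. CNGC12 had log2 fold changes of -0.61 in hda9-1 and -0.54 in pwr-2, and ACBP5 of -0.63 and -0.69. For ACO5 they were UNE15, at 0.54, with -1.40 and -1.99, and HYH, a bZIP transcription factor gene close to HY5, at 0.54, with -1.86 and -1.42. The likeness was much looser for ACO5, whose counts are low. These are descriptions of the same 9 libraries.

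The other 39 genes of ethylene synthesis and signalling listed for this comparison gave 34 tested genes, of which 13 were higher and 2 lower in hda9-1 and 16 higher and 1 lower in pwr-2. Of all tested genes 17.6% were higher and 16.6% lower in hda9-1, and 16% and 15.3% in pwr-2. Of the 34, 17 lie in the highest of the 5 level classes, in which 33.6% of genes were higher and 3.42% lower in hda9-1, and 31.9% and 1.56% in pwr-2. The median log2 fold change of the 34 was 0.13 in hda9-1 and 0.17 in pwr-2, against 0.12 in each mutant for all genes of that class. That class does not stand for the whole list. The lowest class holds 7 of the 34, with a class median of -0.26 for hda9-1 and -0.28 for pwr-2. The second class holds 6, with a class median of -0.13 for hda9-1 and -0.15 for pwr-2. The 34 genes were not compared with genes of like level. The ACC synthases, which act just before the ACC oxidases, had the largest median of these lists, 1.03 in hda9-1 and 1.6 in pwr-2. ACS11, an ACC synthase gene, had 286, 239 and 168 counts in hda9-1, 177, 273 and 252 in pwr-2, and 13, 16 and 28 in WT, with log2 fold changes of 3.89 (SE 0.24) and 3.82 (SE 0.24). ACS8 rose, with log2 fold changes of 2.88 in hda9-1 (SE 0.34) and 3.29 in pwr-2 (SE 0.33), and so did ACS7, with 1.60 (SE 0.49) and 2.34 (SE 0.44). The level of ACS7 was low, with means of 1.06 CPM in hda9-1, 1.71 in pwr-2 and 0.338 in WT. Its WT mean lay within the 0.259 to 0.491 CPM that the floor of 3 counts is worth. ACS4 fell, with -1.19 in hda9-1 (SE 0.28, adjusted p = 0.00679) and -1.06 in pwr-2 (SE 0.27, adjusted p = 0.0123). Of the 6 ACC synthases tested, 3 were higher and 1 lower in hda9-1, and 4 were higher and 1 lower in pwr-2. ACS6, the ACC synthase gene of highest level, had 81.0 ± 1.3 CPM in hda9-1, 108 ± 6.3 in pwr-2 and 60.1 ± 23.5 in WT. The WT means of ACS11 and ACS8 were 1.97 and 1.00 CPM. The median counts each gene alike and is not a change in the summed level of the family. Transcripts of ACS11 and ACS8 were several-fold higher in the same libraries in which ACO4 was not called and ACO1 and ACO5 were lower.

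Upstream of these, 1 of 4 SAM synthetase genes, MTO3, was called higher in each mutant. All 4 lie in the highest level class, in which 33.6% of genes were higher in hda9-1 and 31.9% in pwr-2. MTO3 was higher by 0.37 in hda9-1 (SE 0.08) and 0.28 in pwr-2 (SE 0.08), though 29.7% of its exon bases overlap genes on the other strand. In pwr-2 that call was lost with loess offsets (adjusted p = 0.0663), without pwr-2 replicate 2 (0.0624) and without WT replicate 1 (0.0546) or 2 (0.0551). Of 4 genes that control ACC synthase turnover, 1 was called higher in hda9-1 and 2 in pwr-2, against 17.6% and 16% of all tested genes. Of these 4 genes 2 lie in the highest level class. EOL2, a relative of ETO1, was higher in both mutants, at 0.30 (SE 0.07) and 0.40 (SE 0.07) in hda9-1 and pwr-2. ETO1 was called in pwr-2, at 0.17 (SE 0.06, adjusted p = 0.0427), and this call was lost in 9 of 16 alternatives, among them each that left out a pwr-2 or WT library.

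Downstream of the receptors, 5 of 11 tested genes rose in each mutant and none fell in edgeR's test, with 0 in hda9-1 and 1 in pwr-2 lower at an unadjusted p under 0.05. Of these 11 genes 7 lie in the highest level class, 2 in the second, 1 in the third and 1 in the fourth. In the highest class 33.6% of genes were higher and 3.42% lower in hda9-1, and 31.9% and 1.56% in pwr-2. Whether the direction of the list differs from that of genes of like level was not tested. EBF1, an F-box gene for turnover of EIN3, was higher in hda9-1 by 0.23 (SE 0.05) and in pwr-2 by 0.23 (SE 0.05). ETP1, an F-box gene for turnover of EIN2, was higher in hda9-1 by 0.25 (SE 0.05) and in pwr-2 by 0.28 (SE 0.05), and XRN4 (EIN5), an exoribonuclease gene, by 0.25 in each (SE 0.05). With loess offsets EBF1 (adjusted p = 0.295 and 0.333) and XRN4 (0.0508 and 0.0540) were not called. Of 9 tested ethylene response genes, 3 were higher and 1 lower in hda9-1, and 4 were higher in pwr-2, against 17.6% higher and 16.6% lower, and 16% and 15.3%, of all tested genes. EDF1 and EDF4, transcription factor genes of the RAV group, were higher by 0.46 (SE 0.08) and 0.43 (SE 0.10) in hda9-1 and by 0.65 (SE 0.08) and 0.63 (SE 0.10) in pwr-2. EDF2, of the same group, had 0.42 in hda9-1 (SE 0.12) and 0.73 in pwr-2 (SE 0.12). CHIB, a basic chitinase gene with 33.1% of its exon bases shared with a gene on the other strand, fell in hda9-1, with -0.68 (SE 0.19, adjusted p = 0.0165). That call was lost with loess offsets (0.0899), without hda9-1 replicate 2 (0.0557) and without WT replicate 3 (0.0513). The direct comparison of the mutants called none of the 34 genes in edgeR or DESeq2, with 5 at an unadjusted p under 0.05 in edgeR, 4 higher and 1 lower in pwr-2.

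**Figure D5:**
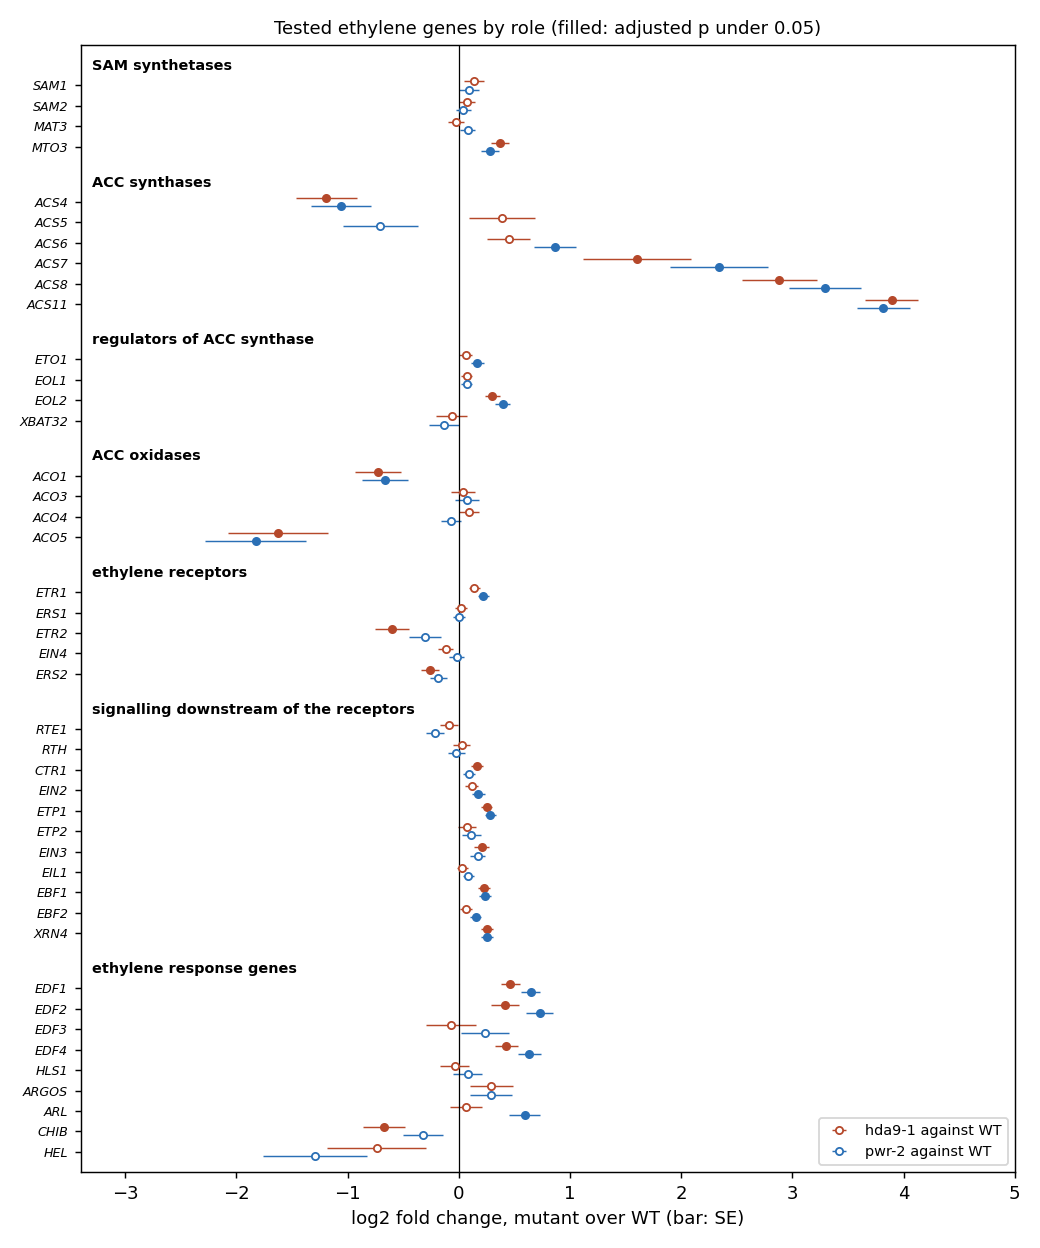
Log2 fold change with SE of the tested ethylene genes in hda9-1 and pwr-2 over WT (horizontal axis), grouped by role from synthesis to response, filled where the adjusted p was under 0.05. ACS11 and ACS8 stand furthest to the right, ACO5 furthest to the left, and most receptors and signalling genes lie close to 0.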

How the data were processed

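Raw read counts for each gene were deposited by the authors as whole numbers without normalisation, from strand-specific dUTP libraries per the labels' protocols. The submitters' processing notes name HISAT2 and TAIR10. The counting tool, its strand setting and its treatment of duplicate or multiply mapped reads are not given in the sources used here. Lengths, positions and sequences come from RefSeq's TAIR10.1. Of the 29420 identifiers, 28932 have a RefSeq entry.

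Counts were tested with edgeR 4.0.16 in R 4.3.3: TMM factors, filterByExpr, genotype fitted in a single quasi-likelihood model of the 9 libraries, and Benjamini-Hochberg adjustment over all 20171 tested genes. A call is an adjusted p under 0.05. Counts at an unadjusted p under 0.05 are given without a share of all tested genes, and the shares of called genes are not their background. SE is the log2 fold change over the square root of F, and 95% intervals use the residual degrees of freedom of the 9 libraries. Log2 CPM took a prior count of 2. The steps were tested on simulated counts. Intervals and floors called counting error cover that alone, since PCR copies are not independent molecules.

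Same-numbered hda9-1 and WT libraries deviated together (correlations 0.359 to 0.456), those of pwr-2 and WT did not (-0.128 to -0.0137). Those of hda9-1 and pwr-2 had -0.241 to -0.189. No batch or pairing of the libraries is named, so a pairing is only read from these correlations. The replicate block was fitted over all 9 libraries, and also in the hda9-1 and WT libraries alone, where same-numbered libraries deviated together. Replicate libraries differed beyond sampling noise. Alternatives were RLE, upper-quartile and loess scaling, no filter, DESeq2 1.42.0, the replicate block, the 2 groups alone and each library left out. The members were named whatever their p, except 1 that is not reported here, and of each other list at most 3 called genes per comparison by adjusted p, with ACS11 and ACS8. The members and lists were chosen with earlier results of these data known.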

Additional observations from a re-analysis of the deposited data

How the results depend on the processing

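None of the 9 members described changed direction while called. Over 17 alternatives in hda9-1 and 16 in pwr-2, 12 of 153 and 9 of 144 member values lost a call, and 4 and 4 gained one. Of the uncalled values, 9 and 6 changed sign. In pwr-2 against hda9-1 no member was called in any alternative. The number of members called in hda9-1, 4, was 2 with loess offsets, 3 with DESeq2 and 5 with upper-quartile factors, all lower. With RLE factors, and with the block in the hda9-1 and WT libraries alone, 4 were lower and 1 higher. Without a library it was 1 to 4, with 2 without hda9-1 replicate 3 and 1 without WT replicate 2. In pwr-2 the number was 3, and 1 to 4 without a library, with 1 without WT replicate 2. With upper-quartile factors, and with only the 2 groups compared, 3 were lower and 1 higher in pwr-2, and with DESeq2 1 was lower and 1 higher. The cause was not tested. Genes called in hda9-1 numbered 6901 with the replicate block over all libraries and 9472 with the block in the hda9-1 and WT libraries alone, an alternative added after seeing the data, against 6897 in the main fit. In pwr-2 the replicate block gave 6251 against 6326. Apart from ETR1 in hda9-1, the block changed no call of a member. Leaving out a library gave 3917 to 7581 calls in pwr-2, the lowest without pwr-2 replicate 2 and 4126 without WT replicate 1. For pwr-2 against hda9-1, 85 calls became 179 with DESeq2, 158 with loess offsets, 179 with no filter, 113 with the replicate block and 9 to 252 without a library. Of the other ethylene genes 17 were called in pwr-2 and 11 with loess offsets, and in pwr-2 against hda9-1 there were 0 and 1 with only the 2 groups compared. Upper-quartile factors shifted the median of all genes to -0.08 in both mutants and the share of higher calls to 32.9% and 32.6%, against 51.6% and 51.1%. The order of levels was kept with upper-quartile factors and with coding length. ACO5, with 28 to 119 counts a genotype, was the member that depth limited most.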

Other observations

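Of the ethylene genes listed, 5 had too few counts to be tested. ERF1, a transcription factor gene directly downstream of EIN3, had 3, 2 and 4 counts in hda9-1, 12, 8 and 3 in pwr-2, and 9, 4 and 9 in WT. EIL2, a relative of EIN3, had 0, 1 and 2 counts in hda9-1, 0, 1 and 2 in pwr-2, and 3, 9 and 6 in WT. ACS2 had 5, 6 and 1 counts in hda9-1, 6, 4 and 2 in pwr-2, and 6, 11 and 14 in WT. ACS1 had 1 count in all 9 libraries and ACS9 had 0, which at 3 counts as the floor allows up to 0.491 CPM of ACS9 in the smallest library.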
